A study of Mus musculus with 9 samples.

Results

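Hspa5, Hsp90b1, Ddit3, Atf4, Xbp1, Calr, Pdia4, Herpud1, Sdf2l1 and Dnajb9 are 10 genes of the unfolded protein response of the endoplasmic reticulum (ER). They were taken by name, as every probe set whose single annotated gene symbol is one of the 10, which gave 21 of the 22690 probe sets on the array and 10 of the 12393 genes with a probe set of their own. The striatum came from 9 male C57BL/6J mice aged 56 days, with 1 array per mouse and 3 mice per group. The groups were injected with methamphetamine (METH), with MPTP, or with saline (Control). METH releases dopamine and damages dopamine terminals at high doses, and MPTP is turned in the brain into a toxin that dopamine neurons take up. No dose, schedule or survival time was found in the sources used here. The striatum holds the terminals of dopamine neurons and not their cell bodies.

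When unfolded proteins build up in the ER, the sensor proteins IRE1, PERK and ATF6 change gene expression. IRE1 splices Xbp1 mRNA into the form that makes an active transcription factor, PERK slows translation and thereby favours translation of Atf4 mRNA, and ATF6 is cut to release its own transcription factor. Chaperone, disulfide isomerase and degradation genes are then switched on, and Ddit3, which encodes CHOP, rises under lasting stress. An array signal measures total transcript. Splicing of Xbp1 and translation of Atf4 were not measured here, and in whole tissue fewer cells of a type and less RNA per cell cannot be told apart.

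The promoters of several of these genes carry the letters that ATF6 and XBP1 are known to use. Exact matches found near the gene starts are shown here. The windows are from RefSeq, build GRCm38.p6, 250 bases before to 50 after the start of each gene, and all 10 genes had 1. The ER stress response element was searched on both strands as the letters CCAAT, then 9 bases of any kind, then CCACG. It was present in the windows of Hspa5, Calr and Hsp90b1, 3 of 10 genes, against 0.119% of all 32851 windows, and Hsp90b1 held 2 copies. ERSE-II, searched on both strands as the letters ATTGG, then 1 base of any kind, then CCACG, was found in Herpud1 alone among the 10 and in 0.0365% of all windows. The 10 genes were taken by name as known genes of this response, so matches could be foreseen. The shares of all windows are a description and no test of enrichment. Capitals mark the element, and each line reads 5′ to 3′ on the strand of the gene.
Hspa5: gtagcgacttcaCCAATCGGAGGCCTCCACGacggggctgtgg
Calr: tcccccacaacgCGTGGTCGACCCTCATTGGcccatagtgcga
Hsp90b1, distal copy: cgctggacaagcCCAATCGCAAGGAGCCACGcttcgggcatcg
Hsp90b1, proximal copy: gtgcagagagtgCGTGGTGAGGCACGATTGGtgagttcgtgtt
Herpud1: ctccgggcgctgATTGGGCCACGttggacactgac
These stretches lie at chr2:34772013-34772055 on the plus strand for Hspa5 and at chr8:84847063-84847105 on the minus strand for Calr. The Hsp90b1 stretches lie at chr10:86705626-86705668 and chr10:86705521-86705563 on the minus strand, and that of Herpud1 at chr8:94386365-94386399 on the plus strand. The element ran from base 65 to base 47 before the start of Hspa5, from 162 to 144 before that of Calr, from 212 to 194 and from 107 to 89 before that of Hsp90b1, and from 52 to 42 before that of Herpud1. In Calr and in the proximal Hsp90b1 copy it lies on the opposite strand. Another motif, the core TGATGNAA of the amino acid response element that ATF4 binds, was also searched on both strands. It was found in Herpud1 alone among the 10 and in 3.97% of all windows. For all of these motifs only exact matches inside the windows were counted. A gene without a match may still hold an element that differs in a letter or lies outside its window.

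No probe set of the 10 genes passed the test after either toxin, and most differences between groups were smaller than the spread between mice. Of the 21 probe sets, 19 had a mean signal above the filter and were tested with limma, and 0 of 19 had an adjusted p under 0.05 in METH against Control, in MPTP against Control or in METH against MPTP. Over all 13576 probe sets tested, 0.0147% passed in METH against Control and 0.0147% in MPTP against Control, which in each case were the 2 probe sets of the astrocyte gene Gfap, and 0% passed in METH against MPTP. At an unadjusted p under 0.05, 1 of 19 was reached in METH against Control (8.76% of all tested), 0 in MPTP against Control (5.52%) and 0 in METH against MPTP (2.8%). A probe set that missed the threshold is not thereby shown to be unchanged, and its interval gives the sizes left possible. In METH against Control the 95% interval of the fold change lay within 2-fold in either direction for 19 of 19 probe sets. It did so for 18 of 19 in MPTP against Control and for 18 of 19 in METH against MPTP. The exception in METH against MPTP was Herpud1 1448185_at (0.85-fold to 2.02-fold). With 1 probe set per gene, that of the highest mean, the median log2 fold change was 0.06 after METH, with 6 genes above 0 and 4 below, where the median over all 7960 genes was 0.001. After MPTP it was -0.02, with 5 genes above 0 and 5 below, where the median of all genes was 0.01. Over probe sets, 13 of 19 lay above 0 after METH and 10 of 19 after MPTP, against 52.9% and 52.3% of all tested. No member had MPTP and Control arrays without overlap (0 of 19), where 11.1% of all tested probe sets did. Both comparisons use the same 3 Control arrays.

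**Figure D1:**
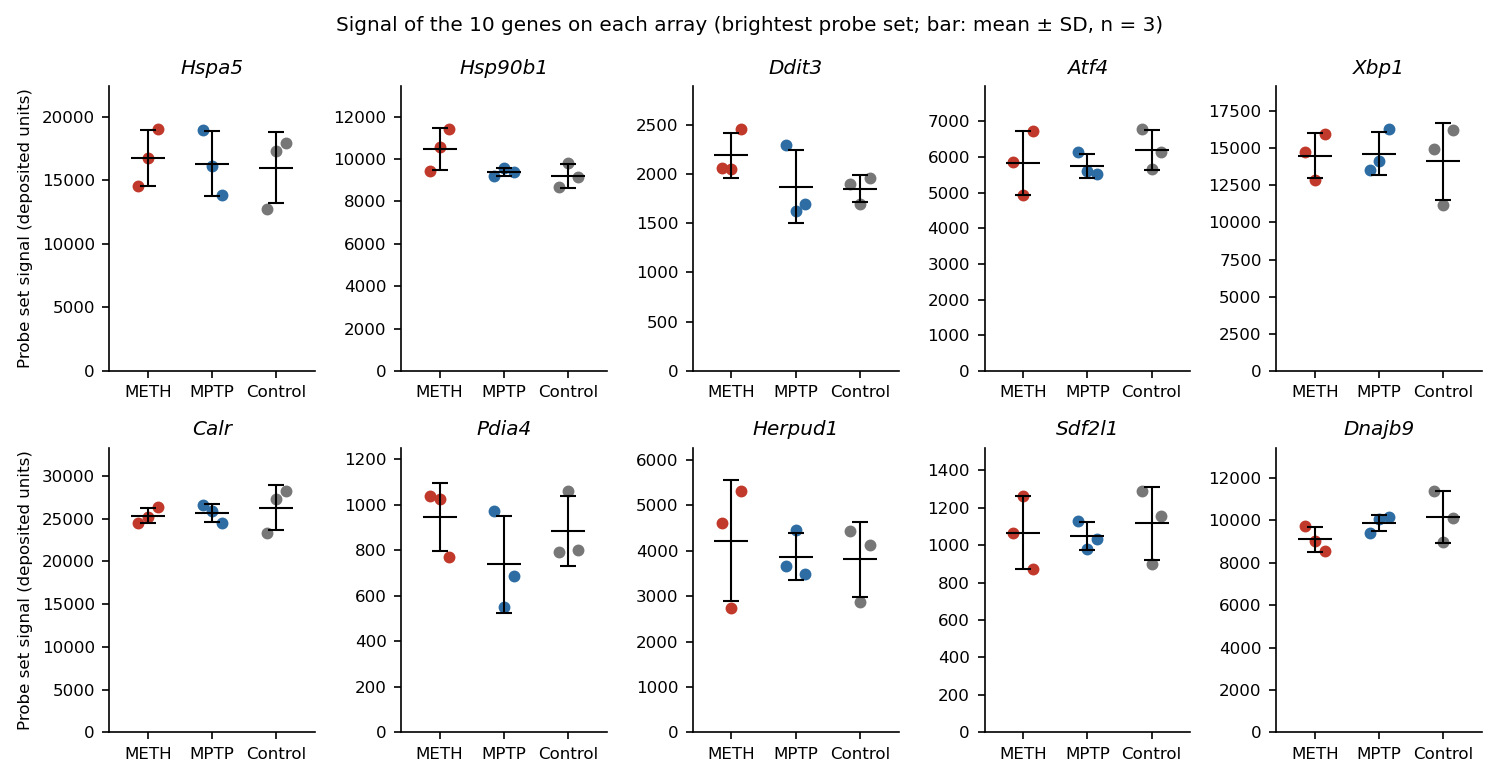
Signal of the brightest probe set of each of the 10 genes on every array, in deposited units on a linear axis from 0, in METH, MPTP and Control mice (points: arrays; bars: mean ± SD, n = 3 per group). The groups overlap in every panel except Ddit3, where the METH arrays (2051 to 2450.46) lie above the Control arrays (1692 to 1959).

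The transcription factors come first. Ddit3 had 2059, 2051 and 2450.46 in METH mice, 2293, 1624 and 1694 in MPTP mice, and 1901, 1692 and 1959 in Control mice. The METH arrays were each higher than any Control array, and 1 MPTP array lay above the Control arrays while the other two did not. Ddit3 was the only one of the 19 probe sets whose METH and Control arrays did not overlap, whereas 13.7% of all tested probe sets did not overlap in that comparison. The log2 fold change was 0.24 ± 0.14 (SE; adjusted p = 0.672, limma) after METH and 0.00 ± 0.14 (adjusted p = 0.9995) after MPTP. Leaving out 1 array at a time gave 0.15 to 0.28 after METH, and the lowest value was found without METH 3.

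Atf4, the factor translated under PERK signalling, had 5854, 4922 and 6717 in METH mice, 6140.3, 5609 and 5512 in MPTP mice, and 6771, 5655 and 6144 in Control mice on its brightest probe set. The groups overlapped, at log2 fold changes of -0.09 ± 0.13 after METH and -0.10 ± 0.13 after MPTP. A dimmer Atf4 probe set (1438992_x_at) gave 0.08 ± 0.11 and -0.06 ± 0.11. The remaining Atf4 probe set (1439258_at) was below the filter, at 63.5 to 123 in METH, 46.7 to 98.8 in MPTP and 23.3 to 65.6 in Control mice, and was not tested. Atf4 probe sets thus gave no common sign after METH.

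Xbp1, the target of IRE1 splicing, had 4 probe sets, all tested. The brightest (1437223_s_at) had 14711, 12860.2 and 15916 in METH mice, 13521, 14113 and 16254 in MPTP mice, and 14957, 11201 and 16188 in Control mice, at log2 fold changes of 0.05 ± 0.15 and 0.06 ± 0.15. Another (1420011_s_at) had the smallest p of the 19 after METH. It had 6078, 4296 and 6504 in METH mice, 4253, 5425 and 5245 in MPTP mice, and 3852, 3976 and 4899 in Control mice. METH 2 lay inside the Control range and the other METH arrays above it. The log2 fold change was 0.39 ± 0.17 after METH (unadjusted p = 0.0455, adjusted p = 0.563, limma) and 0.23 ± 0.17 after MPTP. Of the other two, 1420886_a_at gave 0.18 ± 0.14 and 0.09 ± 0.14. The dimmest (1420012_at) had 643 to 1256 in METH, 530.3 to 1016 in MPTP and 965 to 1086 in Control mice, at -0.13 ± 0.26 and -0.50 ± 0.26. Its interval after MPTP, 0.47-fold to 1.06-fold, was the only 1 in the comparisons with Control that reached past 2-fold. The Xbp1 probe sets did not share a sign in either comparison with Control.

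**Figure D2:**
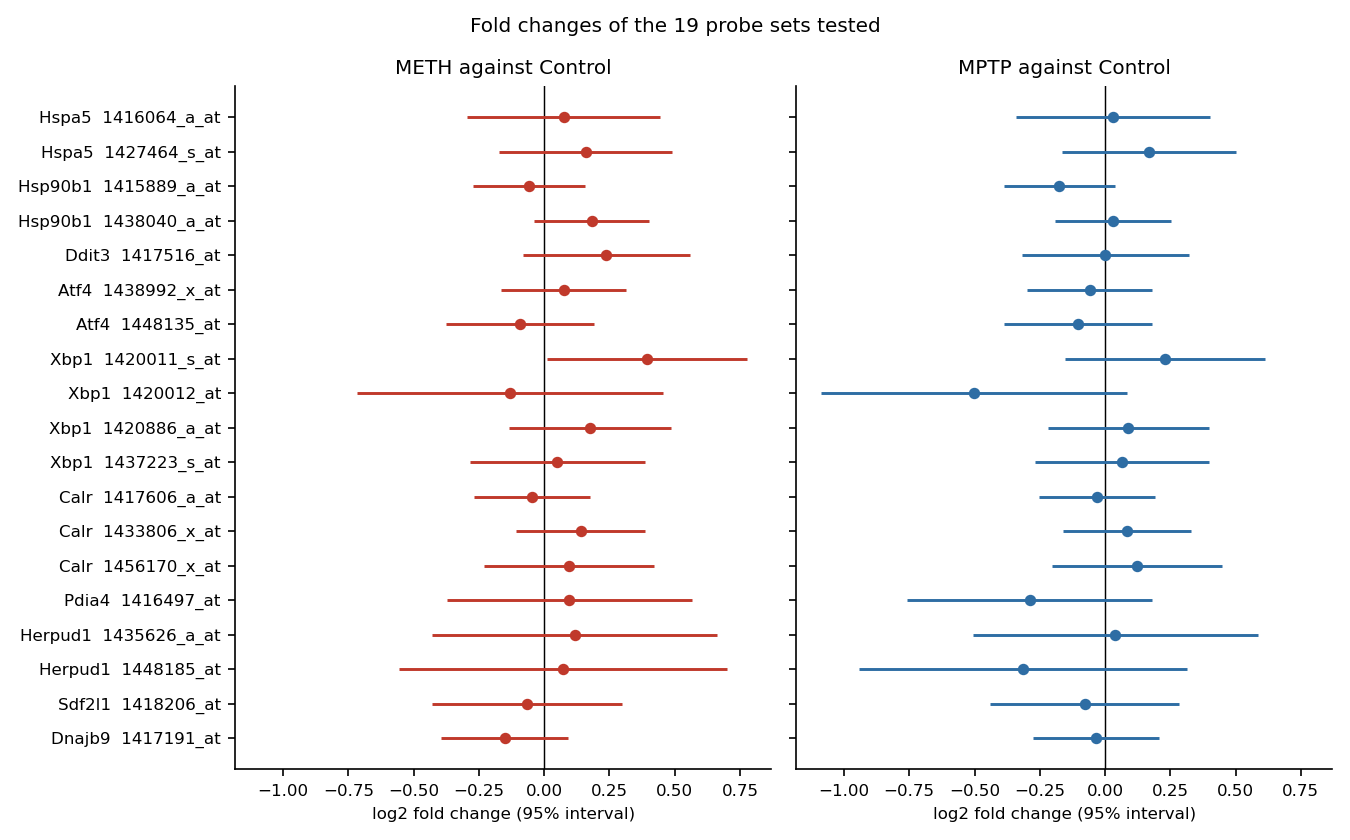
Log2 fold change of each of the 19 tested probe sets with its 95% interval from limma, for METH against Control (left) and MPTP against Control (right). The interval holds 0 for 18 of 19 probe sets after METH, the exception being Xbp1 1420011_s_at, and for 19 of 19 after MPTP.

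Among the lumenal chaperones, Hspa5 encodes BiP, the Hsp70-type chaperone that binds unfolded proteins and holds the sensors inactive. It had 14536, 16740.3 and 18992 in METH mice, 18941, 16130.4 and 13815 in MPTP mice, and 12773, 17319 and 17902 in Control mice. Each group spanned most of the range of all 9 arrays, and the log2 fold changes were 0.07 ± 0.17 and 0.03 ± 0.17. The other Hspa5 probe set (1427464_s_at) gave 0.16 ± 0.15 after METH and 0.17 ± 0.15 after MPTP. The sign of the Hspa5 values depended on the processing. With array weights both probe sets lay below 0 after METH (-0.05 and -0.02), and 1416064_a_at did so after MPTP with array weights (-0.03) and with arrays centred on their medians (-0.01).

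Hsp90b1, which encodes the ER member of the Hsp90 family, had 9449, 10557.5 and 11396 in METH mice, 9217, 9582 and 9373 in MPTP mice, and 8665, 9806 and 9149.8 in Control mice on its brightest probe set (1438040_a_at). METH 2 and METH 3 were the highest of the 9 arrays and METH 1 lay within the Control range, at a log2 fold change of 0.18 ± 0.10 (adjusted p = 0.633, limma). After MPTP it was 0.03 ± 0.10. The other probe set (1415889_a_at) had 8491, 8575 and 9031 in METH mice, 8112.5, 7679 and 8276 in MPTP mice, and 8228, 9845 and 9161 in Control mice. There the values were -0.06 ± 0.10 after METH and -0.18 ± 0.10 after MPTP (adjusted p = 0.874). On that probe set each METH array was higher than any MPTP array, the only 1 of the 19 without overlap between the toxins, against 7.26% of all tested probe sets. The difference was 0.12 ± 0.10 on the log2 scale (adjusted p = 0.9998, limma).

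Calr encodes calreticulin, the calcium-binding chaperone of glycoproteins. Its probe set of highest mean had 24527, 25264 and 26327 in METH mice, 26662, 25884 and 24495 in MPTP mice, and 23285, 27337 and 28254 in Control mice. The METH and MPTP arrays lay inside the Control range, at log2 fold changes of -0.05 ± 0.10 and -0.03 ± 0.10, and the 95% interval of the fold change was 0.829 to 1.13 after METH and 0.839 to 1.14 after MPTP. The other Calr probe sets gave 0.14 ± 0.11 and 0.10 ± 0.15 after METH and 0.09 ± 0.11 and 0.12 ± 0.15 after MPTP.

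Pdia4, a disulfide isomerase, had a mean signal near the filter of 742. It had 1039, 1023 and 772 in METH mice, 973, 553 and 687 in MPTP mice, and 794, 1060.25 and 799 in Control mice. METH 3 was the low array of its group, and 2 of the 3 MPTP arrays lay below the Control range. The log2 fold changes were 0.10 ± 0.21 after METH and -0.29 ± 0.21 after MPTP (adjusted p = 0.909, limma), and the difference between the toxins was 0.38 ± 0.21 (adjusted p = 0.9998). Without MPTP 2 the value after MPTP was -0.10, and without MPTP 1 it was -0.51. The second Pdia4 probe set was below the filter, at 252 to 569.9 in METH, 155 to 548 in MPTP and 246 to 461 in Control mice.

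Ttr, the abundant transthyretin gene of the choroid plexus, varied widely between arrays and was set beside Pdia4. Ttr had 43941, 50423 and 8555 in METH mice, 33342, 2853 and 7142 in MPTP mice, and 65370.4, 34985 and 11543 in Control mice. Over the 9 arrays Pearson's r between the log2 values of Ttr and Pdia4 was 0.85 (exact permutation p = 0.0057, adjusted p = 0.057 over the 10 genes) and Spearman's rho was 0.68 (exact permutation p = 0.0503, adjusted p = 0.333). Without MPTP 2 and MPTP 3, the arrays farthest from the Ttr median, r was 0.56, and with the group means taken out it was 0.80. This relation was looked for after the values were seen. The next highest r with Ttr was 0.54, for Sdf2l1, and the others ran from -0.43 to 0.30. Of the choroid plexus list, 10 genes were on the array and 2 were above the filter. The summed signal of the 10 ranged from 11066 to 55356 in METH, 5465 to 37155 in MPTP and 14853 to 71551 in Control mice. Most of that sum was Ttr itself, 65370.4 of 71551 in Control 1 and 2853 of 5465 in MPTP 2. Folr1, also above the filter, ran from 869 to 1470 over the 9 arrays. The part of choroid plexus tissue in the Pdia4 values was not tested.

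Sdf2l1, a lumenal protein that works with ER Hsp40 cochaperones, had 1062, 1263 and 873 in METH mice, 1129, 979 and 1033 in MPTP mice, and 1289, 901 and 1156 in Control mice. The groups overlapped, at log2 fold changes of -0.07 ± 0.16 and -0.08 ± 0.16. Dnajb9, an Hsp40 cochaperone of BiP that favours degradation of misfolded proteins, had 9736, 9036 and 8552 in METH mice, 9417, 10051.8 and 10147 in MPTP mice, and 11381, 8957 and 10108 in Control mice. METH 3 was the lowest of the 9 arrays and Control 1 the highest. The log2 fold change was -0.15 ± 0.11 after METH (adjusted p = 0.713, limma) and -0.03 ± 0.11 after MPTP.

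Herpud1, a membrane protein of the ER-associated degradation complex, varied widely within groups. On 1435626_a_at it had 4608, 2742 and 5319 in METH mice, 3674, 4464 and 3481 in MPTP mice, and 4434, 2876 and 4126 in Control mice, at 0.12 ± 0.24 and 0.04 ± 0.24. METH 2 and Control 2 were the low arrays, and without METH 2 the value after METH was 0.40. On 1448185_at it had 3807, 3063 and 4734 in METH mice, 4251, 2804 and 2073 in MPTP mice, and 4785, 2681 and 3703 in Control mice, at 0.07 ± 0.28 after METH and -0.31 ± 0.28 after MPTP. The within-group SD was 0.37 and 0.43 log2 units on these probe sets, above those of 95.2% and 97.5% of all tested probe sets. Across the 19 it ran from 0.09 for Hsp90b1 1415889_a_at to 0.43, with a median of 0.19, against a median of 0.16 over all tested probe sets.

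Between the toxins, 14 of 19 probe sets had a higher mean after METH than after MPTP, where 49.7% of all tested probe sets did. With 1 probe set per gene the median difference was 0.03, against -0.01 over all genes. Apart from Pdia4, the larger differences were those of Herpud1 1448185_at (0.39 ± 0.28), Xbp1 1420012_at (0.37 ± 0.26) and Ddit3 (0.24 ± 0.14), and the adjusted p of each was 0.9998 (limma). The order of the group means of Ddit3 was METH, MPTP, Control, and no neighbours in that order passed the test.

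Relations between members from mouse to mouse went both ways. Among the 45 pairs of genes, Pearson's r over 9 arrays had a median of 0.07 and ran from -0.86 to 0.86, with 24 pairs above 0. No pair passed after Benjamini-Hochberg adjustment over the 45 (0 of 45, against 5 at an unadjusted exact permutation p under 0.05). Hspa5 and Calr had r = 0.86 and rho = 0.83 (exact permutation p = 0.00287 and 0.00827, adjusted p = 0.0646 and 0.186). Without Control 1 and MPTP 3, r was 0.68, and with group means taken out it was 0.94. The Calr probe set used here had r = 0.13 and 0.60 with the other Calr probe sets. The ER stress response element was found in the windows of both genes, and its part in this relation was not tested. Hsp90b1, the other gene with a match to that element in its window, had r = 0.55 with Hspa5 (exact permutation p = 0.126, adjusted p = 0.642) and 0.24 with Calr. Hsp90b1 and Dnajb9 ran opposite to each other, with r = -0.86 and rho = -0.83 (exact permutation p = 0.00275 and 0.00827, adjusted p = 0.0646 and 0.186), and r was -0.83 without METH 3 and METH 2. The Hsp90b1 probe set used here (1438040_a_at) had r = 0.33 with the other Hsp90b1 probe set (1415889_a_at). Hspa5 and Dnajb9 had r = -0.77 and rho = -0.73 (exact permutation p = 0.0149 and 0.0311, adjusted p = 0.223 and 0.467). Without Control 1 and MPTP 3, r was -0.44. Herpud1 and Atf4 had r = 0.75 and rho = 0.60 (exact permutation p = 0.0199 and 0.0968, adjusted p = 0.224 and 0.726), and r was 0.61 without METH 2 and Control 1. Xbp1 and Herpud1 had r = 0.69 and rho = 0.42 (exact permutation p = 0.0395 and 0.27, adjusted p = 0.355 and 0.74). Without Control 2 and METH 2, r was 0.09.

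**Figure D3:**
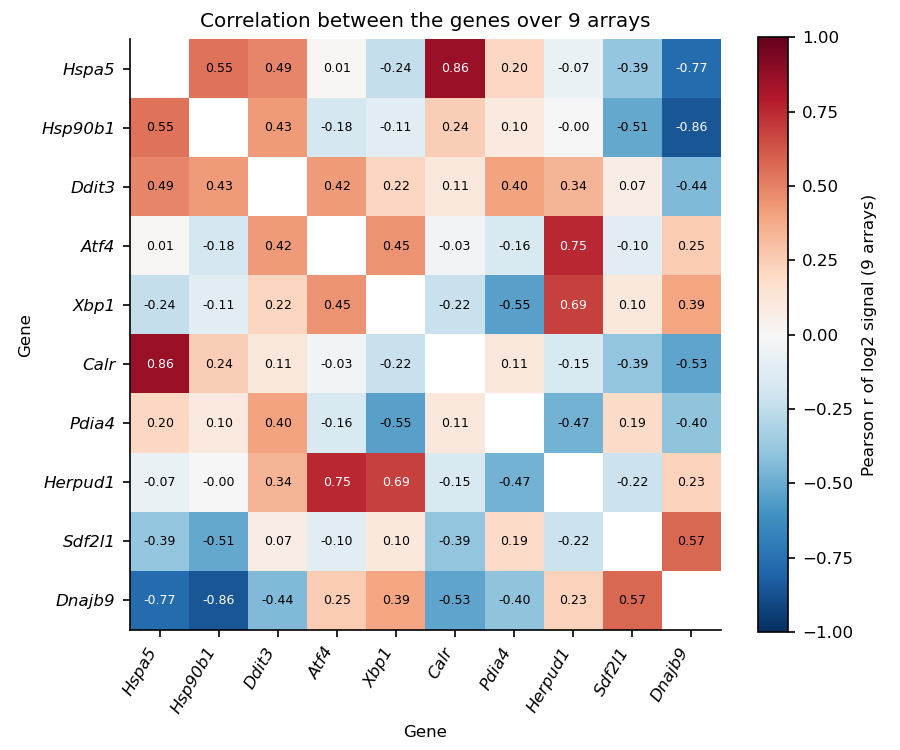
Pearson's r between the log2 signals of the 10 genes over 9 arrays, 1 probe set per gene, on a colour scale from -1 (blue) to 1 (red). The highest value is that of Hspa5 with Calr (0.86) and the lowest that of Hsp90b1 with Dnajb9 (-0.86), and 0 of 45 pairs pass after adjustment.

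Probe sets of the same gene gave a measure of how well a member was read. Over the 13 such pairs with both probe sets tested, r had a median of 0.25, ran from -0.31 to 0.77, and was above 0 for 10. The other 3 pairs hold a probe set below the filter, and with them the lowest r was -0.59, for Atf4 1439258_at and 1448135_at. P-values were adjusted over all 16 pairs. The pair of Hspa5 had r = 0.77 and rho = 0.68 (exact permutation p = 0.0118 and 0.0503, adjusted p = 0.1895 and 0.582), and 0.52 without Control 1 and MPTP 3. That of Herpud1 had r = 0.59 and rho = 0.57 (exact permutation p = 0.0992 and 0.121, adjusted p = 0.326 and 0.582). Calr pairs had r = 0.60, 0.13 and 0.07. The tested pairs with r below 0 were those of Xbp1 1420012_at with 1420011_s_at (-0.31) and with 1437223_s_at (-0.31), and that of Atf4 1438992_x_at with 1448135_at (-0.06).

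The genes whose pattern over the 9 arrays was most like the mean log2 deviation of the 10 members were Kdm1a, a histone demethylase gene (r = 0.94), Acsbg1, an acyl-CoA synthetase gene (0.88), Cog6, a Golgi tethering gene (0.88), Cops8, a COP9 signalosome gene (0.86), and Amz2 (0.85). They are the top 5 of 7950 genes, picked for that likeness. Acsbg1 is also among the astrocyte markers used for these arrays, and the part of astrocytes in its likeness was not tested. The member mean itself spanned little, from -0.09 in MPTP 3 to 0.10 in METH 3.

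The wider ER folding machinery gave a like picture, with 0 genes past the test in either direction in each of 6 lists and in each comparison. Sensors and transcription factors of the response had 11 genes tested, with 6 above 0 and 5 below after METH (median 0.03) and likewise 6 and 5 after MPTP (median 0.02). Creb3, an ER-bound transcription factor gene, had 5530, 5007 and 5541 in METH mice and 6804, 6638 and 6925 in Control mice, without overlap, at -0.34 ± 0.09 (adjusted p = 0.45, limma). Creb3l1, another ER-bound factor, had 1359, 1645 and 1679.74 in MPTP mice and 1031, 865 and 1206 in Control mice, also without overlap, at 0.60 ± 0.14 (adjusted p = 0.765). In METH mice Creb3l1 had 0.27 ± 0.14, and Creb3l2 had 0.38 ± 0.18 in MPTP mice. The genes named from each list were those of smallest p in it after each toxin. Of all tested probe sets, 13.7% did not overlap in METH against Control and 11.1% in MPTP against Control. Not every named gene without overlap is marked as such below.

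Targets of ATF4 and CHOP had 24 genes tested, 15 above 0 after METH (median 0.03) and 12 after MPTP (median -0.01). Ppp1r15a, whose product GADD34 ends the translation block, had 1927, 2231 and 1735 in METH mice and 1389, 1619 and 1376 in Control mice. These groups did not overlap, at 0.42 ± 0.18 (adjusted p = 0.543, limma). Shmt2, a mitochondrial serine-glycine enzyme gene, had -0.21 ± 0.11 after METH. After MPTP, Cebpg had 0.17 ± 0.11 and Phgdh, the first enzyme gene of serine synthesis, 0.12 ± 0.08.

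Chaperones and cochaperones other than the members had 18 genes tested, 10 above 0 after METH (median 0.01) and 5 after MPTP (median -0.03). Creld2, an ER stress-induced secreted protein gene, had 1592, 1657 and 1600.19 in METH mice and 1032, 1190.5 and 1591 in Control mice, at 0.37 ± 0.17 (adjusted p = 0.577, limma). METH 1 exceeded Control 3 by under 2 units. Fkbp2, a prolyl isomerase gene, had -0.22 ± 0.12 after METH and -0.20 ± 0.12 after MPTP, and Dnajc3, which encodes a BiP cochaperone, had 0.23 ± 0.15 after MPTP.

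Disulfide isomerases and ER oxidases had 15 genes tested, 6 above 0 after METH and 8 after MPTP, with medians of -0.01 and 0.00. Ero1b, which reoxidises disulfide isomerases, had 1047, 1207 and 997 in METH mice, 1231, 1099.53 and 1082 in MPTP mice, and 1506, 1544 and 1341 in Control mice. The arrays of each toxin lay below all Control arrays, at -0.44 ± 0.11 (adjusted p = 0.422, limma) and -0.36 ± 0.11 (adjusted p = 0.819). Prdx4, an ER peroxiredoxin gene, had -0.10 ± 0.13 and 0.19 ± 0.13.

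ER-associated degradation had 30 genes tested, 19 above 0 after METH (median 0.03) and 15 after MPTP (median -0.003). Bag6, a holdase gene for proteins bound for the proteasome, had -0.30 ± 0.10 after METH and -0.20 ± 0.10 after MPTP. Edem3, which trims mannose on misfolded glycoproteins, had 0.26 ± 0.09 after METH, and the ubiquitin ligase gene Rnf185 had 0.32 ± 0.14 after MPTP. Translocation and N-glycosylation genes had 36 tested, 15 above 0 after METH (median -0.02) and 18 after MPTP (median -0.001). Tusc3, an oligosaccharyltransferase subunit gene, had -0.20 ± 0.10 and Ganab, a glucosidase subunit gene, 0.18 ± 0.10 after METH, and the glycan assembly genes Alg12 and Dpagt1 had 0.24 ± 0.12 and 0.35 ± 0.18 after MPTP. Over all 7960 genes, 50.3% lay above 0 after METH and 51.8% after MPTP.

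**Figure D4:**
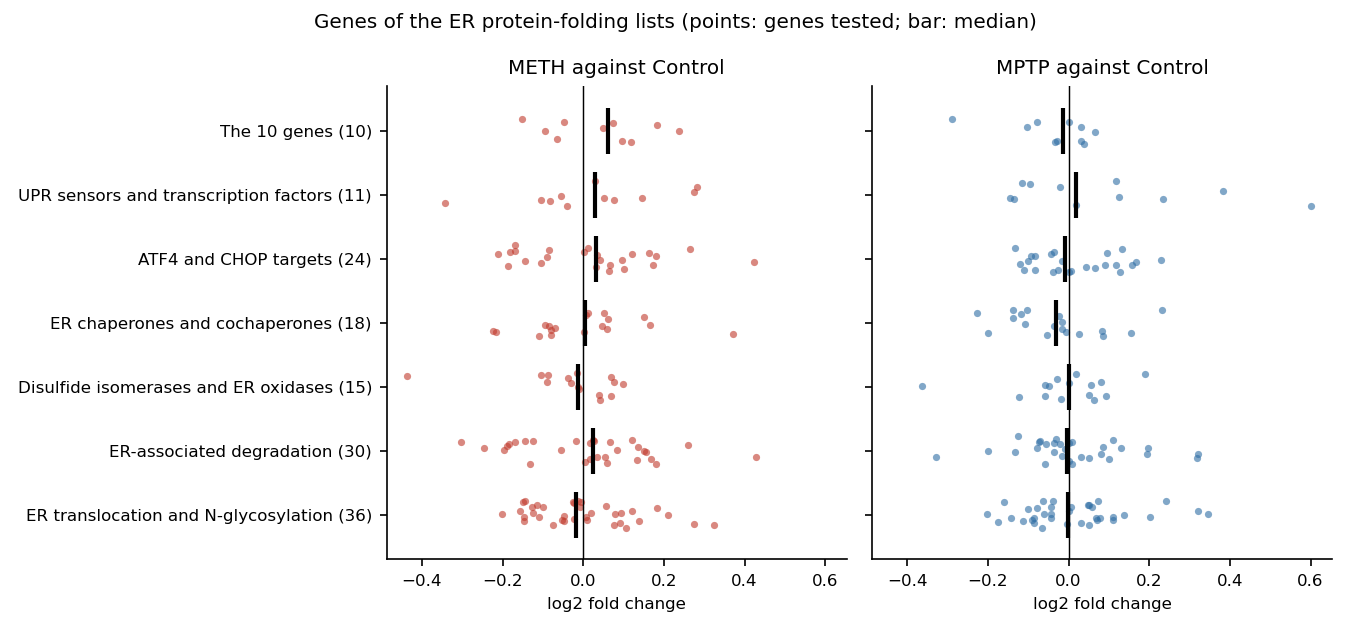
Log2 fold changes of the 10 genes and of 6 lists of other ER folding genes, for METH against Control (left) and MPTP against Control (right), with 1 point per gene tested, the median as a black bar and the number of genes in brackets. The medians lie between -0.03 and 0.06, and no point passes the test.

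Facts of the arrays and tissue bear on all of these values. METH 2 stood apart with the narrowest spread of signals, its 10th to 90th percentile width being 6.25 log2 units where other arrays had 6.40 to 6.69, and without it 0 of 19 probe sets passed in any comparison. The spiny neuron genes Penk, Drd2 and Ppp1r1b, which mark striatum, were bright on every array (Penk 51368.5 to 55969.8 in METH, 47495.5 to 56247 in MPTP and 50590.4 to 59113 in Control mice). Of the 9 spiny neuron markers tested, 7 lay below 0 after METH (median -0.11) and 8 after MPTP (median -0.09), with 0 past the test. Microglia markers were above 0 for 11 of 11 genes tested after each toxin (medians 0.19 after METH and 0.20 after MPTP), with 0 past the test. Their summed signal over 13 genes was 63135 to 64293 in METH, 59362 to 63513 in MPTP and 52284 to 59025 in Control mice. Gfap was the 1 astrocyte marker of 12 that passed. Oligodendrocyte markers were above 0 for 9 of 13 genes after METH (median 0.11) and for 13 of 13 after MPTP (median 0.18). Endothelial markers were above 0 for 5 of 13 after METH and 4 of 13 after MPTP, and blood cell markers for 3 of 4 and 4 of 4. These 3 lists had 0 past the test after either toxin. The part of these cell types in the members' values was not tested.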

How the data were processed

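Per the labels, total striatal RNA was labelled with biotin and hybridised to single-colour Affymetrix mouse arrays, and each title gives an array's group and replicate number. The authors deposited 1 linear intensity per probe set and array (0.342 to 84013). The submitters' processing notes name RMA with no version, and these values do not have the form RMA usually gives, so how probe sets were summarised is unsettled. The mean after trimming 2% from either tail was 2499.8 on each array, and no detection calls were used. The number of arrays limits the precision.

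The deposited intensity values were put on the log2 scale with no pseudocount. Control probe sets (64) and those with a mean under the 40th percentile (9.54, a signal of 742) were left out of the tests. This left 13576 probe sets. limma 3.58.1 in R 4.3.3 was fitted with 1 mean per group on all 9 arrays (6 residual and 3.94 prior degrees of freedom). Two-sided p-values were corrected over all probe sets tested (Benjamini-Hochberg), and an adjusted p under 0.05 passed. The ± after a log2 value is the SE of that fit. With 3 arrays against 3 the smallest p of an exact permutation test is 0.1, so that test was not run between groups. Permutation p-values of correlations come from all orderings of the arrays and are two-sided. The fit was tested on simulated data. The probe annotation's platform is a smaller design than the one the submitters' text names; all 21 probe sets were found in the NCBI RefSeq gene table (GRCm38.p6) by gene ID, and 0 symbols changed.

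The members and lists were chosen with earlier results of these data known. Named from each list were the 2 genes of smallest p in each comparison with Control, by the probe set of highest mean, and the 5 genes most like the member mean. Alternatives covered normalization, an offset, filters, gene-level values, arrays in the fit, array weights, a replicate block and leaving out each array. No batch is given in the sources used here.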

Additional observations from a re-analysis of the deposited data

How the results depend on the processing

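The count of member probe sets past the test was 0 in all 3 comparisons under each alternative run, the replicate block included, and without each array in turn. No log2 fold change of a member passed under any alternative, but the sign of many small values depended on the setting. Adjusted p-values (limma) were 0.4025 or more over the values followed by probe set. Those values leave out the gene means and most probe sets in METH against MPTP. Same-numbered arrays had correlations of -0.13 to 0.05 between their deviations from group means, so no pairing by number was visible. How the numbers were given is not known. The replicate block left each log2 fold change as it was, since each number occurs once in each group.

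The probe sets past the test over the whole table, 2 in each comparison with Control, numbered 0 with arrays centred on their medians and 0 with the replicate block in both comparisons. They numbered 1 after METH with no filter, with 1 probe set per gene, with gene means and with only the groups compared. After MPTP they numbered 0 with no filter and with only the groups compared, and 1 with 1 probe set per gene, with gene means and with array weights. Leaving out 1 array gave 0 to 1 after METH and 0 after MPTP.

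The median member log2 fold change after METH was -0.035 with array weights and ran from -0.045 (without Control 2) to 0.093 when 1 array was left out. After MPTP it ran from -0.107 (without Control 2) to 0.026. Between METH and MPTP it was 0.135 with gene means.

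After METH, values of opposite sign to those reported were, with array weights, Hspa5 1416064_a_at -0.053 and 1427464_s_at -0.018 and Xbp1 1437223_s_at -0.017, with median centring Xbp1 1437223_s_at -0.014, with cyclic loess Pdia4 -0.0012 and Calr 1417606_a_at 0.020, and with quantile normalization Calr 0.0079. After MPTP they were, with array weights, Hspa5 1416064_a_at -0.035, Ddit3 -0.018, Xbp1 1420886_a_at -0.014 and 1437223_s_at -0.045 and Herpud1 1435626_a_at -0.012. With median centring they were Hspa5 1416064_a_at -0.0099, Ddit3 -0.040, Herpud1 1435626_a_at -0.0012 and Hsp90b1 1438040_a_at -0.010. Cyclic loess gave Ddit3 -0.030 and Calr 1417606_a_at 0.0053, and quantile normalization -0.033 and 0.0069. The causes were not tested.

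Leaving out 1 array turned further signs. After METH the ranges were -0.127 to 0.0023 for Hsp90b1 1415889_a_at, -0.080 to 0.173 for Hspa5 1416064_a_at, -0.132 to 0.0075 for Calr 1417606_a_at, -0.068 to 0.183 for Calr 1456170_x_at, -0.211 to 0.071 for Sdf2l1, -0.354 to 0.129 for Xbp1 1420012_at, -0.108 to 0.158 for Xbp1 1437223_s_at, -0.076 to 0.402 for Herpud1 1435626_a_at, -0.145 to 0.273 for Herpud1 1448185_at and -0.202 to 0.023 for Atf4 1448135_at. After MPTP they were -0.124 to 0.144 for Hspa5 1416064_a_at, -0.121 to 0.052 for Dnajb9, -0.155 to 0.093 for Ddit3, -0.115 to 0.025 for Calr 1417606_a_at, -0.013 to 0.180 for Calr 1433806_x_at, -0.044 to 0.207 for Calr 1456170_x_at, -0.224 to 0.035 for Sdf2l1, -0.152 to 0.161 for Herpud1 1435626_a_at, -0.094 to 0.172 for Xbp1 1437223_s_at, -0.013 to 0.077 for Hsp90b1 1438040_a_at and -0.151 to 0.030 for Atf4 1438992_x_at. No pair of members passed by Pearson's r after adjustment (0 of 45) with quantile normalization, median centring, cyclic loess, an offset of 64 or without METH 2.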
